A study of Mus musculus with 6 samples.

Results

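The Dup hindlimb was compared with the C57BL/6 wild-type hindlimb at stage E11.5, gene by gene and within each cell class, by single-cell RNA-seq. Of 6897 cells in the 2 libraries, 6598 entered, namely 4441 of 4648 Dup cells and 2157 of 2249 wild-type cells. They belonged to the 7 classes that held 30 or more cells in both libraries: 6 finer classes of mesenchyme, and muscle. The whole series holds 24891 cells over the same limit of 2000 detected genes, in 6 libraries. The other 4 libraries, used here only for values set side by side, were hindlimbs and forelimbs of Inv1 and of G4 wild-type embryos at the same stage. Inv1 is an inversion at the same locus, homozygous in these embryos, and the labels give the G4 stem cell line as the strain of all 4.

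Both libraries came from hindlimb buds dissociated with trypsin. Dup is a tandem duplication carried on both chromosomes, which holds Lbx1, Fbxw4 and the 3 genes between them (Btrc, Poll and Dpcd) and leaves Fgf8 outside, made to model a duplication found in people with Split-Hand/Foot Malformation type 3. The Dup embryos were homozygous, and the wild-type embryos carried no rearrangement. The allele was made in G4 stem cells, which are a 129 and C57BL/6 hybrid, and the mice were raised by aggregation with CD1 foster mothers and bred to C57BL/6. The labels give the strain of both libraries as c57bl6.J. There was 1 library per group, whether embryos were pooled is not given, and no difference below has a replicate check. The duplication, the remaining strain background, the exact age of the buds and the handling of each library therefore cannot be told apart.

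The limb bud at this stage is a core of mesenchyme under a jacket of ectoderm. From the body outwards the mesenchyme forms the stylopod (thigh), the zeugopod (shank) and the autopod (foot). Meis1 and Meis2, transcription factors of the proximal limb, mark the stylopod, the Hoxa11 and Hoxd11 genes the zeugopod, and Hoxa13 and Hoxd13 the autopod. Muscle precursors migrate in from the somites under the control of Lbx1 and Pax3 and then switch on Myod1 and Myog. The apical ectodermal ridge (AER), where Fgf8 is made, held 25 Dup and 16 wild-type cells and was too small to enter.

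Levels are unique molecular identifiers (UMIs) summed over the cells of a class and scaled to the class total, in counts-per-million (CPM). Intervals in parentheses are 95% intervals for counting error only, and molecules counted after PCR carry other error besides. In mesenchyme, levels were standardised: each finer class was given the same weight in both libraries, so that a difference in how many cells each class holds does not enter the ratio. A gene is called higher or lower where its Dup over wild-type ratio was at least 1.5 or at most 1/1.5, with the whole interval on that side of 1. Genes at a mean of 50 CPM or more were counted, and members of gene lists at 20 CPM or more.

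The Dup library was the shallower of the pair, with 6729 UMIs per cell (median) against 8480 in wild type. It was shallower in all 7 classes, from 5727 against 9832 in autopod chondrocyte progenitors to 9760 against 13852 in muscle. Only 9 barcodes were shared by the 2 libraries. Muscle, the autopod classes and stylopod mesenchyme carried their own markers in both libraries. The summed markers of muscle reached 1946 CPM in Dup and 1445 CPM in wild-type muscle cells, but 7.03 to 20.2 CPM in Dup and 19 to 37.4 CPM in wild-type mesenchymal classes. Autopod markers were highest in the autopod classes (847 and 913 CPM in Dup and wild-type autopod mesenchyme), and stylopod markers in stylopod mesenchyme (467 and 766 CPM). The sum of Hoxa11, Hoxd11 and Shox2, listed as zeugopod markers, did not single out zeugopod mesenchyme. It was 447 CPM in Dup and 651 CPM in wild type there, below the 823 and 728 CPM of muscle connective tissue. This sum holds Shox2, which is also counted among the proximal genes below, so it does not speak for Hoxa11 and Hoxd11 alone. Immune markers summed to 4.35 to 13.5 CPM in Dup and 5.23 to 23.4 CPM in wild type over the 7 classes. Pitx1, which specifies the hindlimb, stood at 344 and 317 CPM in Dup and wild-type mesenchyme, a ratio of 1.09.

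The Dup mesenchyme held more distal and fewer proximal cells. Autopod mesenchyme made up 34.5% of Dup mesenchymal cells (33.1 to 36.0) against 16.1% in wild type (14.5 to 17.8), a ratio of 2.14 (1.90 to 2.43). Autopod chondrocyte progenitors, the cells that begin the cartilage of the foot, made up 6.40% against 4.44%, a ratio of 1.44 (1.13 to 1.85). Stylopod mesenchyme took 18.2% against 34.0%, a ratio of 0.537 (0.484 to 0.596), and stylopod chondrocyte progenitors 3.01% against 8.30%, a ratio of 0.363 (0.286 to 0.459). Between these ends, zeugopod mesenchyme took 31.7% against 31.5%, and muscle connective tissue 6.14% against 5.68%, with intervals of the ratio that include 1 (0.915 to 1.11 and 0.865 to 1.36). Muscle was 4.04% of all Dup cells and 5.87% of wild-type cells, a ratio of 0.689 (0.549 to 0.868). The totals were 4253 Dup and 2025 wild-type mesenchymal cells.

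These classes were named by the authors from clusters of the same expression values. The sources used here do not say which genes marked the limb segments, and a shift of segment genes and a shift of cells between classes are not independent measures. How the buds were cut and how far each had developed were not recorded in the labels, and their part in these shares was not tested. Among cells with over 3000 detected genes, the autopod ratio was 2.55, with 970 Dup and 1118 wild-type cells of all classes left.

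**Figure D1:**
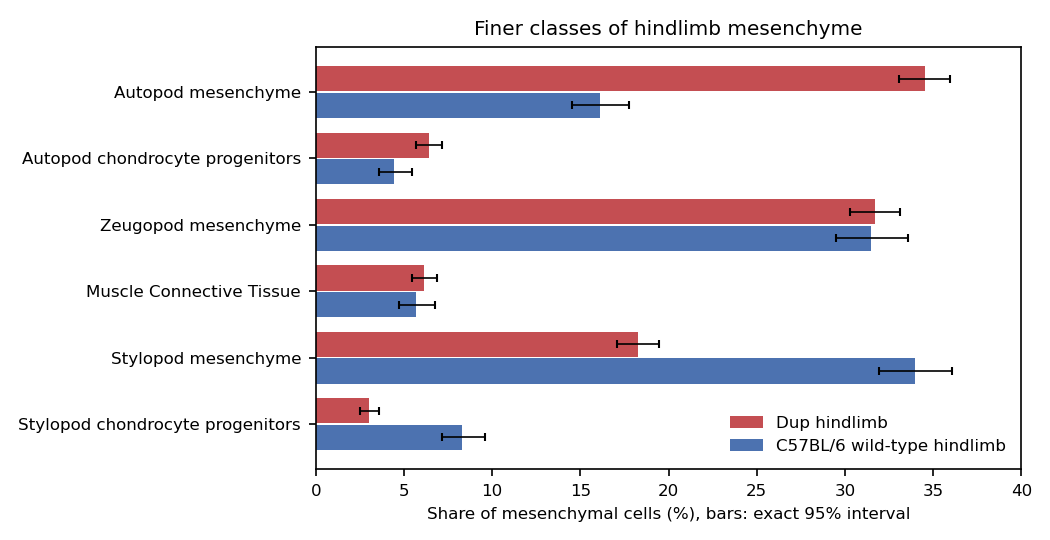
Share of mesenchymal cells (x axis, %) in each of the 6 finer classes (y axis), Dup bars above C57BL/6 wild-type bars, with exact 95% intervals. Autopod mesenchyme stands at 34.5% in Dup and 16.1% in wild type, and stylopod mesenchyme at 18.2% and 34.0%.

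Most genes called in mesenchyme as a whole were no longer called once the makeup was held equal. Without standardisation, 11 of 3141 genes were higher in Dup (0.35%) and 44 were lower (1.4%). After standardisation, 6 of 3145 were higher (0.191%) and 8 were lower (0.254%), and these 14 were all among the 55 called before, so 41 calls were lost. A lost call was not always a ratio near 1, as for Alad at 1.49 (1.38 to 1.61) and Mest at 0.710 (0.695 to 0.725). The 6 higher genes were Fos, Jun, Cyr61, Dpcd, Lum and Ier2. The 8 lower genes were Casd1, Pkdcc, Peg10, Atp5k, Gm10076, Meis2, Hbb-bh1 and Hba-x. Standardised ratios lay close to 1 elsewhere: 92.7% of measured genes were within 1.2-fold, the median log2 ratio was -0.02, and 4 genes passed 2-fold. All 6 higher genes were above 1 in every finer class, and 7 of the 8 lower genes were below 1 in every finer class. The exception was Pkdcc, a secreted kinase of skeletal growth, with a ratio of 1.01 in muscle connective tissue.

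The 10 genes named for their shift on standardisation were the 5 with the largest shift in each direction. Meis2 had a ratio of 0.326 over all mesenchymal cells and 0.559 once standardised. Hoxd13, the most 5′ gene of the HoxD cluster and a regulator of digit formation, had 1.91 before and 1.11 (1.04 to 1.18) after. Hoxa13 went with it (1.66 before and 1.08 after), as did Hoxd12 (1.73 and 1.07). Vcan, which encodes the matrix proteoglycan versican, had 0.593 before and 0.927 after. Fibin, which encodes a secreted protein, had 0.431 and 0.742. Itm2a, a membrane protein gene, had 0.470 and 0.765, and Wwp2, a ubiquitin ligase gene, had 0.441 and 0.757. Lhx2 (1.23 and 0.872) and Hoxd11 (0.905 and 0.701) complete the 10.

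**Figure D2:**
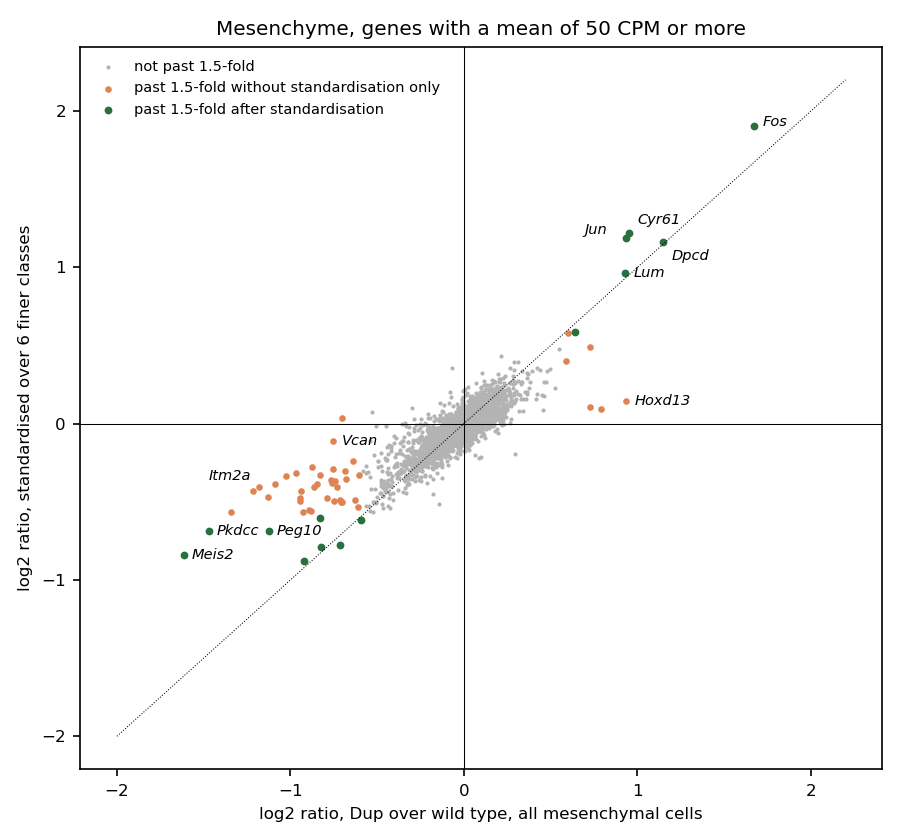
Each point is a gene with a mean of 50 CPM or more in mesenchyme, with the log2 ratio of Dup over wild type over all mesenchymal cells (x axis) and standardised over the 6 finer classes (y axis). The dotted line marks equal ratios, the 14 genes called after standardisation are dark green, and the genes called only without it (orange) move towards 0 on the y axis.

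Calls were more frequent in the smaller classes. Past 1.5-fold either way were 1.22% of genes in autopod mesenchyme (37 of 3038), 4.96% in autopod chondrocyte progenitors (159 of 3203), 0.862% in zeugopod mesenchyme (27 of 3134) and 5.3% in muscle connective tissue (171 of 3226). In stylopod mesenchyme it was 0.87% (28 of 3218), and in stylopod chondrocyte progenitors 3.54% (116 of 3273). In muscle 1.14% were higher (32 of 2795) and 1.43% lower (40 of 2795). At the lower floor used for gene lists, 0.268% of 5964 genes were higher and 0.469% lower in standardised mesenchyme, and the counts of list members below are read against these shares and the same shares in each class. The same measure without standardisation called 0.461% of mesenchymal genes between Inv1 and G4 wild-type hindlimb, 6.81% between Inv1 and G4 wild-type forelimb, and 6.63% between the G4 and the C57BL/6 wild-type hindlimbs. That last pair shares its C57BL/6 library with the Dup pair.

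The duplicated genes were read first, as a check of the labels. Btrc, Poll, Dpcd and Fbxw4 lie side by side on chromosome 19 (build NCBIM37), in broad use in the limb and each at low level. Btrc is the substrate receptor beta-TrCP of an SCF ubiquitin ligase, which marks beta-catenin and IkB for degradation. Poll is a DNA repair polymerase, Dpcd is linked to cilia, and Fbxw4 is another F-box protein. Btrc (chr19:45438224-45607831, + strand) had 47.1 CPM in Dup and 23.0 CPM in wild-type standardised mesenchyme, a ratio of 2.05 (1.83 to 2.29). Dpcd (chr19:45635105-45652769, + strand) had 124 and 55.1 CPM, a ratio of 2.24 (2.09 to 2.41). Poll (chr19:45626765-45635021, - strand) had 22.6 and 10.4 CPM, and Fbxw4 (chr19:45652744-45734802, - strand) had 15.9 and 7.06 CPM, with ratios of 2.17 and 2.26. The annotated 3′ ends of Dpcd and Fbxw4 overlap, and whether counting used strand is not stated, so some reads of this pair could be shared.

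Poll and Dpcd are transcribed away from each other and start close together, so that their promoters meet. The RefSeq sequence of that point (GRCm38.p6, chr19:45560560-45560589, + strand) is shown because it lies between 2 of the duplicated genes with ratios near 2, with the 20 bases between the starts in capitals.
Poll and Dpcd: aatacTTCCCGGGTCATCCGGAAGTgatca

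Summed, the 4 genes had 209 CPM in Dup and 95.6 CPM in wild-type mesenchyme, a ratio of 2.19 (2.07 to 2.31). This interval leaves out the ratio of 2 that copy number alone would give. By class the sum had ratios of 2.11 (1.87 to 2.39) in autopod mesenchyme, 2.29 (1.83 to 2.89) in autopod chondrocyte progenitors and 2.08 (1.89 to 2.29) in stylopod mesenchyme. In stylopod chondrocyte progenitors it was 2.04 (1.60 to 2.62), in muscle connective tissue 1.81 (1.46 to 2.25), and in muscle 2.02 (1.69 to 2.41). Each of these intervals includes 2. Among the 7 classes zeugopod mesenchyme was the exception, with 221 CPM in Dup and 90.3 CPM in wild type, a ratio of 2.45 (2.23 to 2.70). Fbxw4 was the member farthest above 2 there, with a ratio of 3.12 (2.15 to 4.66) on 34 wild-type UMIs, followed by Dpcd at 2.52 (2.23 to 2.86).

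**Figure D3:**
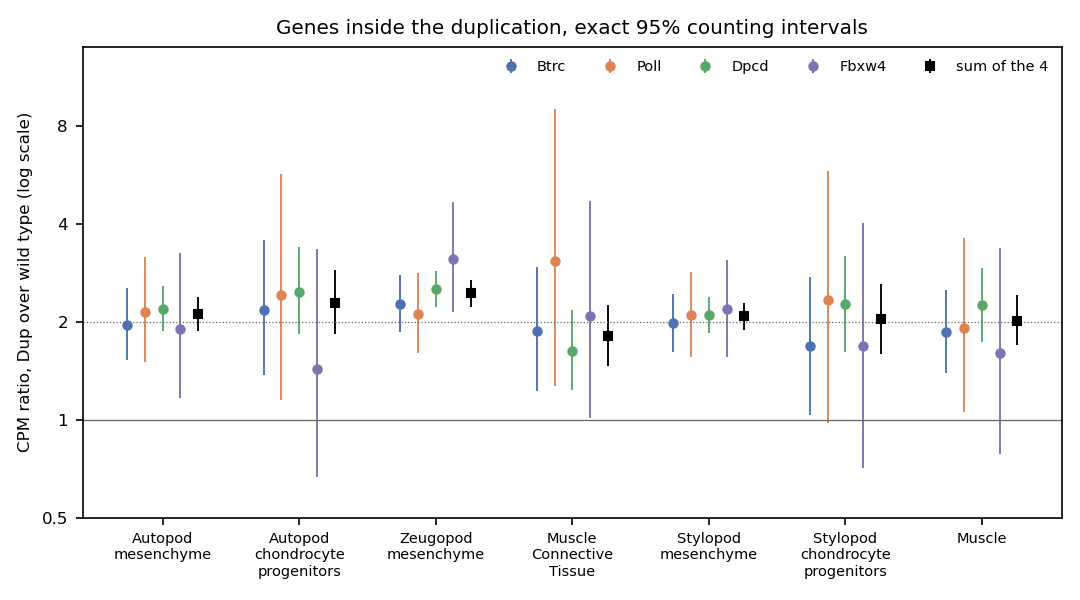
Ratio of CPM in Dup over wild type (y axis, log scale) for Btrc, Poll, Dpcd, Fbxw4 and their sum (black squares) in each of the 7 classes (x axis), with exact 95% counting intervals. The solid line marks 1 and the dotted line 2, and the interval of the sum leaves out 2 in zeugopod mesenchyme alone.

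Lbx1 and Fgf8, the 2 genes of the locus with strict cell types, behaved otherwise. Lbx1 (chr19:45307178-45310301, - strand), the homeobox factor of migrating muscle precursors, had 211 CPM in Dup and 134 CPM in wild-type muscle cells, a ratio of 1.57 (1.35 to 1.83) whose interval leaves out 2. In mesenchyme it was near the floor, with 29 UMIs in Dup and 40 UMIs in wild type, or 1.04 and 2.24 CPM, a ratio of 0.467 (0.282 to 0.773). Fgf8 (chr19:45811288-45817405, - strand), outside the duplicated segment, had 4.42 CPM in Dup and 5.29 CPM in wild-type mesenchyme, a ratio of 0.836 with an interval (0.637 to 1.10) that includes 1. Droplet libraries hold free RNA from broken cells, so levels this low in mesenchyme are not read as expression.

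No neighbour of the segment was called. Of 15 measured neighbours within 1000 kb outside the segment, ratios ran from 0.719 for Scd2, a fatty acid desaturase gene, to 1.22 for Cuedc2. Distances were taken from the annotated ends of Lbx1 and Fbxw4, not from the breakpoints of the duplication. Npm3, the nearest measured on the telomeric side at 87.4 kb from Fbxw4, had 1.15 (1.08 to 1.22). Lzts2, the nearest measured on the centromeric side at 206 kb from Lbx1, had 0.925 (0.854 to 1.00). Over chromosome 19 outside the segment, 0 of 96 genes were called, and 9.38% lay past 1.2-fold beside 7.32% of 3144 genes on all chromosomes. At the lower floor of 20 CPM, Pdcd11, which acts in ribosomal RNA processing, was called on this chromosome, with 37.9 CPM in Dup and 59.1 CPM in wild type and a ratio of 0.641 (0.588 to 0.698). It was picked out after its value was seen.

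Most of the immediate early genes measured were higher in Dup mesenchyme. These genes are transcribed within minutes of a stimulus, be it a growth factor, stretch or the dissociation of a tissue, and encode AP-1 subunits (Fos, Fosb, Jun, Junb, Jund), the zinc finger factors Egr1, Klf2 and Klf4, and feedback regulators such as Dusp1 and Btg2. Of 18 members 10 reached the floor. Of these, 7 were higher in Dup mesenchyme, all 10 were above 1, and the median log2 ratio was 1.01, beside -0.04 over all genes at this floor. The floor of 20 CPM is set on the mean of the 2 libraries. Egr1, Fosb, Klf2 and Btg2 had 13.1, 13.7, 17.3 and 18.7 CPM in wild type. They reached the floor only through their Dup level, so it favoured calls of this direction, and the same floor was used in each class. Fos had 199 CPM in Dup and 53.4 CPM in wild-type mesenchyme, a ratio of 3.74 (3.49 to 4.0). Egr1 had 76.9 and 13.1 CPM, a ratio of 5.87 (5.17 to 6.67), and Klf2 had 61.0 and 17.3 CPM, a ratio of 3.52 (3.12 to 3.97). Jun, the partner of Fos in AP-1, had 523 and 229 CPM, a ratio of 2.28 (2.2 to 2.36). Fosb (3.29) and Btg2 (1.78) were further members above the fold. Ier2, at 424 and 282 CPM, stood at the edge with 1.5 (1.46 to 1.56). Dusp1 (1.29) and Klf4 (1.48) were under the fold, and Jund, a steadily expressed AP-1 member, had 547 and 427 CPM and 1.28. Outside the list, Cyr61, a matrix protein gene often induced with them, had 108 and 46.1 CPM, a ratio of 2.33 (2.16 to 2.51), and Rhob, a small GTPase gene, had 52.8 and 22.9 CPM, a ratio of 2.31 (2.06 to 2.57).

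The promoters of Fos and Btg2 are shown because both genes were higher in Dup and each holds the cyclic AMP response element, through which CREB factors act on many immediate early genes. The 250 bases before each start are from RefSeq (GRCm38.p6), with the 6 letters TGACGT of Fos (chr12:85473640-85473889, + strand, 66 bases before the start) and the 8 letters TGACGTCA of Btg2 (chr1:134079156-134079405, - strand, 166 bases before the start) in capitals.
Fos: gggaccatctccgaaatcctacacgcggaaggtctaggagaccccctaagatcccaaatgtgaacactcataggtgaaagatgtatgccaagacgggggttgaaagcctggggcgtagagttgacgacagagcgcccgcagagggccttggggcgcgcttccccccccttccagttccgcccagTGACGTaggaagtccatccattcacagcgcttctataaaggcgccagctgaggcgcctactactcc
Btg2: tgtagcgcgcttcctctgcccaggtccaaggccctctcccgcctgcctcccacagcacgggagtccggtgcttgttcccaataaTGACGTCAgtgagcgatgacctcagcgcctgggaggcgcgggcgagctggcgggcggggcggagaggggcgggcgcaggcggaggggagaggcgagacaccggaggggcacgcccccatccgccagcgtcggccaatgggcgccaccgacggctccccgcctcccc
On both strands, TGACGT occurred in 4 of the 15 immediate early promoters with a RefSeq entry, in a window of 250 bases before to 50 bases after the start, and in 7.51% of 32851 promoters. The longer TGACGTCA, which contains it, occurred in 2 of the 15 and in 1.79% of all promoters. The CArG box, the site of serum response factor, occurred in 1 of the 15 and in 1.63% of all. A match is a description of the letters and no measure of binding.

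The rise of immediate early genes was seen in all 7 classes and was steepest in the stylopod. In stylopod mesenchyme 12 of 12 measured members were higher (median log2 ratio 1.71), against 0.611% of all genes of the class, and in stylopod chondrocyte progenitors 10 of 12 (1.65), against 3.46%. Counts were 6 of 9 in autopod mesenchyme (0.91, against 0.439% of all genes), 6 of 10 in autopod chondrocyte progenitors (1.22, against 2.86%), 5 of 10 in zeugopod mesenchyme (0.56, against 0.438%), 4 of 7 in muscle connective tissue (0.79, against 1.61%) and 7 of 9 in muscle (1.12, against 1.57%). Fos had 343 CPM in Dup and 73.2 CPM in wild-type stylopod mesenchyme, 354 and 79.7 CPM in stylopod chondrocyte progenitors, and 230 and 76.0 CPM in muscle. In autopod mesenchyme it had 140 and 49.2 CPM, in autopod chondrocyte progenitors 238 and 38.4 CPM, in zeugopod mesenchyme 131 and 44.7 CPM, and in muscle connective tissue 81.1 and 29.0 CPM. The lowest Dup class for Fos thus stood above the highest wild-type class, by a narrow margin. Klf2, better known from endothelium, had 125 CPM in Dup and 21.1 CPM in wild-type stylopod mesenchyme (5.93, 4.91 to 7.21), but 30.9 and 18.5 CPM in zeugopod mesenchyme (1.67, 1.34 to 2.10). Egr1 was scarce in wild type, with as few as 3 UMIs in autopod chondrocyte progenitors, where the ratio was 21.1 (7.02 to 104).

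The top 5% of mesenchymal cells held 35.5% of Fos UMIs in Dup and 47.5% in wild type. Other stress programmes were not called over standardised mesenchyme. Of 6 measured heat shock genes 0 were past the fold (median log2 ratio -0.12, with the cochaperone Dnajb1 at 1.14). Of 6 p53 target genes 0 were (-0.10), and of 7 genes of the integrated stress response 0 (0.08, with its transcription factor Atf4 at 1.27). By class, 1 of 7 heat shock and 1 of 6 integrated stress genes were higher in muscle, against 1.57% of all genes. Of integrated stress genes, 1 of 6 was higher in autopod (2.86%) and 1 of 8 in stylopod chondrocyte progenitors (3.46%). Lower were 2 of 7 of them in muscle connective tissue (6.43%) and 1 of 7 in autopod mesenchyme (1.77%). Of p53 targets, 1 of 7 was lower in autopod chondrocyte progenitors (5.02%) and 1 of 5 in muscle connective tissue (6.43%). In the other pairs of the series, without standardisation, Fos had 44.2 CPM in Inv1 and 34.7 CPM in G4 wild-type hindlimb mesenchyme, and 149 and 79.4 CPM in the forelimb pair. Egr1 had 36.0 and 11.2 CPM in the Inv1 and G4 hindlimbs and 147 and 44.9 CPM in the forelimbs, beside 67.9 and 15.3 CPM in Dup and C57BL/6 wild type measured the same way. Both genes thus stood higher in each mutant library than in its wild type, with 1 library per group. Whether the Dup and Inv1 differences share a cause was not tested. Dissociation is known to induce them, and its part in these values was not tested.

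**Figure D4:**
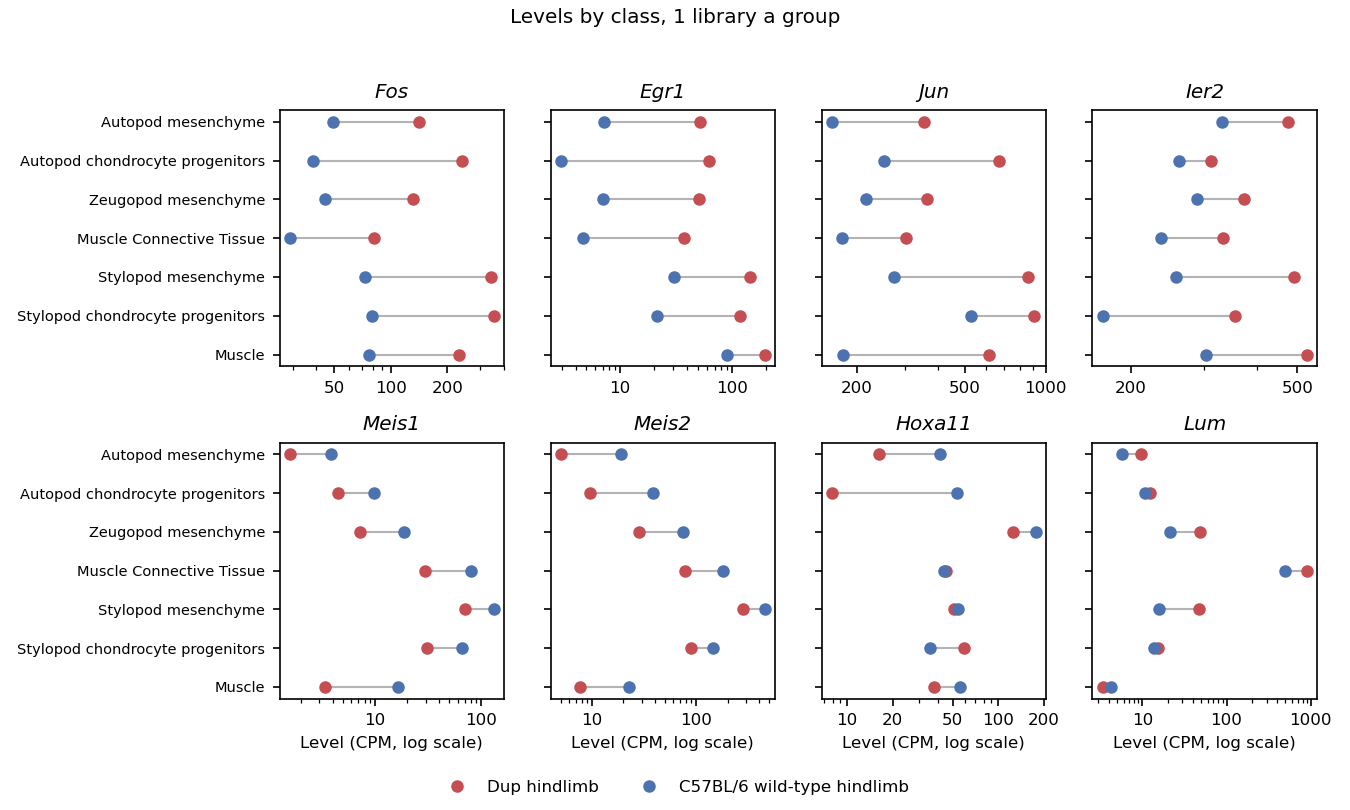
Level in CPM (x axes, log scale) of Fos, Egr1, Jun, Ier2, Meis1, Meis2, Hoxa11 and Lum in the 7 classes (y axis), with red points for the Dup library and blue points for the C57BL/6 wild-type library. Fos, Egr1, Jun and Ier2 are to the right in Dup in every class and Meis1 and Meis2 to the left, while Hoxa11 changes side between autopod and stylopod chondrocyte progenitors.

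Several proximal limb genes were lower in Dup mesenchyme. Of 6 measured, 3 were lower, against 0.469% of all genes, and all 6 were below 1, with a median log2 ratio of -0.62. Meis1 had 23.3 CPM in Dup and 47.4 CPM in wild-type standardised mesenchyme, a ratio of 0.491 (0.442 to 0.545). Meis2 had 89.4 and 160 CPM, a ratio of 0.559 (0.529 to 0.591), where all mesenchymal cells together gave 0.326. Irx3, an Iroquois factor of the proximal and anterior limb, had 24.9 and 42.4 CPM, a ratio of 0.586. Pbx3, of a family of Meis cofactors, did not reach the fold (0.748). Shox2, needed for the stylopod skeleton, had 234 and 236 CPM (0.991).

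By class, 4 of 7 proximal genes were lower in stylopod mesenchyme, against 0.677% of all genes there. In stylopod chondrocyte progenitors 3 of 6 were lower, against 2.13%, and in zeugopod mesenchyme 2 of 4, against 0.808%. In autopod mesenchyme 2 of 3 were lower, against 1.77%, and in autopod chondrocyte progenitors 2 of 4, against 5.02%. In muscle 0 of 3 were lower, against 2.84%. In muscle connective tissue 3 of 8 were lower, against 6.43%, and 1 was higher, against 1.61%. The higher gene was Irx5, with 56.2 CPM in Dup and 31.8 CPM in wild type (1.77, 1.19 to 2.69).

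Meis2 was lower in all 7 classes. It had 5.02 CPM in Dup and 19.2 CPM in wild-type autopod mesenchyme (0.262, 0.181 to 0.378), and 28.3 and 73.9 CPM in zeugopod mesenchyme (0.382, 0.327 to 0.446). In muscle connective tissue it had 77.9 and 182 CPM (0.427), in stylopod mesenchyme 284 and 455 CPM (0.625, 0.586 to 0.666), and in muscle 7.73 and 22.8 CPM (0.339). In muscle these levels rest on 16 Meis2 UMIs in Dup and 48 in wild type. The globin sum, which reaches mesenchymal droplets as free RNA, was 2772 CPM in Dup and 4127 CPM in wild-type mesenchyme. The part of free RNA in these ratios was not tested. As each class can hold a range of positions, a shift of position within a class and a lower level per cell cannot be told apart. With the finer deposited clusters in place of the named classes, 1 proximal gene was called. Without standardisation Meis2 had 37.8 CPM in Inv1 and 77.0 CPM in G4 wild-type hindlimb mesenchyme, beside 64.7 and 198 CPM in Dup and C57BL/6 wild type, so its level in the G4 wild type was itself well under that in the C57BL/6 wild type.

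The Hox genes of the middle segment were all below 1 and mostly short of the fold. Of 8, 1 was called, Hoxd10, with 27.0 CPM in Dup and 42.0 CPM in wild type, a ratio of 0.644 (0.581 to 0.713). Hoxd11 had 146 and 208 CPM (0.701) and Hoxa11 had 62.1 and 87.2 CPM (0.712), and the median log2 ratio was -0.48. With all classes weighted equally, or with wild-type weights, 0 were called. By class, members were lower in the zeugopod, the autopod and muscle. In zeugopod mesenchyme 4 of 8 were lower, against 0.808% of all genes there, in autopod mesenchyme 3 of 5, against 1.77%, and in autopod chondrocyte progenitors 3 of 5, against 5.02%. In stylopod mesenchyme 0 of 7 were lower, against 0.677%, in muscle connective tissue 1 of 7, against 6.43%, and in stylopod chondrocyte progenitors 0 of 7, against 2.13%. In muscle 2 of 6 were lower, against 2.84%. Hoxa11 had 16.3 CPM in Dup and 41.1 CPM in wild-type autopod mesenchyme (0.397, 0.318 to 0.498), and 7.91 and 53.1 CPM in autopod chondrocyte progenitors (0.149, 0.0764 to 0.272). In zeugopod mesenchyme, where it is most abundant, it had 125 and 177 CPM (0.707), in stylopod mesenchyme 51.2 and 54.2 CPM (0.944), and in stylopod chondrocyte progenitors 59.5 and 35.2 CPM (1.69, 1.11 to 2.58).

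Distal genes were not called over standardised mesenchyme, and differed in direction between classes. Of 10 autopod genes 0 were called, with 4 above and 6 below 1 and a median log2 ratio of -0.13. In autopod mesenchyme 10 of 11 were below 1 and 1 was lower (-0.33), against 1.77% of all genes there. In autopod chondrocyte progenitors 1 was higher and 2 were lower of 11 (-0.05), against 2.86% and 5.02%. In zeugopod mesenchyme 1 of 9 was higher (0.14), against 0.438%. Hoxd13 had 285 CPM in Dup and 283 CPM in wild-type autopod mesenchyme (1.01, 0.935 to 1.08), but 36.5 and 25.0 CPM in zeugopod mesenchyme (1.46, 1.2 to 1.78). Hoxa13 likewise had 169 and 191 CPM in autopod mesenchyme (0.883) and 77.0 and 44.8 CPM in zeugopod mesenchyme (1.72, 1.49 to 1.98). In muscle cells Hoxa13 had 29.5 and 6.65 CPM (4.43, 2.45 to 8.58), on 61 and 14 UMIs. There 0 of 12 distal genes reached the floor of 20 CPM. Hoxd13 was above 1 in muscle (24 and 9 UMIs) and Hoxd12 below 1 (7 and 19 UMIs). The part of free RNA in these muscle values was not tested. Lhx9, a LIM homeobox factor of the distal mesenchyme, had 157 and 165 CPM (0.952), and Cyp26b1, which clears retinoic acid from the distal bud, had a ratio of 0.732.

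Signalling targets were not called over standardised mesenchyme, but FGF/ERK feedback genes were lower in the autopod. Of 4 measured targets of Wnt and beta-catenin, a substrate of beta-TrCP, 0 were called and all 4 were above 1 (median log2 ratio 0.32), with Axin2, the feedback inhibitor of the pathway, at 1.29 and Nkd2 at 1.30. Of 6 FGF/ERK feedback genes 0 were called (-0.28), with the ERK phosphatase gene Dusp6 at 0.695 and Il17rd at 0.722. By class, 4 of 8 of these were lower in autopod mesenchyme (-0.42, against 1.77% of all genes) and 3 of 5 in autopod chondrocyte progenitors (-0.97, against 5.02%), while 3 measured in stylopod chondrocyte progenitors had a median of 0.46 with 0 called. Dusp6, induced by ERK signalling, had 53.5 CPM in Dup and 102 CPM in wild-type autopod mesenchyme (0.525, 0.459 to 0.6), and 53.1 and 137 CPM in autopod chondrocyte progenitors (0.388, 0.296 to 0.508). Etv5, an ETS factor downstream of FGF, had 22.2 and 39.3 CPM in autopod mesenchyme (0.565), and Spry1, a Sprouty inhibitor gene, had 20.8 and 35.4 CPM (0.587). Of 6 BMP response genes 0 were called (0.13), and Id1, the most direct of these targets, had 551 CPM in Dup and 417 CPM in wild type (1.32). Grem1, the BMP antagonist of the posterior distal bud, was lower, with 15.8 and 25.2 CPM (0.628, 0.550 to 0.717). Of 7 other SCF ubiquitin ligase subunits 0 were called (-0.07). Replication genes stayed near 1, with 0 of 20 S phase genes (-0.04) and 0 of 20 G2/M genes (-0.05) called.

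Outside these lists, the higher genes of mesenchyme were few. Lum, which encodes the collagen-binding proteoglycan lumican of connective tissue, had 82.4 CPM in Dup and 42.2 CPM in wild type, a ratio of 1.95 (1.80 to 2.12). Its transcripts sat in few cells, and the top 5% of cells held 81.2% of its UMIs in Dup and 84.8% in wild type. In muscle connective tissue it had 893 and 496 CPM (1.80, 1.63 to 1.99), and in stylopod mesenchyme 46.8 and 15.6 CPM (3.00, 2.36 to 3.83). Alad, of haem synthesis, had 78.4 and 52.4 CPM (1.49), and Twist1, a mesenchymal bHLH factor, had 376 and 298 CPM (1.26).

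Among the lower genes, several were imprinted or lie beside imprinted genes. Peg10 and Casd1, neighbours on chromosome 6 in an imprinted cluster, had 75.2 CPM in Dup against 121 CPM in wild type (0.621, 0.584 to 0.660) and 71.6 against 109 CPM (0.659, 0.620 to 0.702). Asb4 of the same cluster had 0.680, and Mest, another paternally expressed gene of chromosome 6, had 641 and 903 CPM (0.710). Of 16 measured imprinted genes 1 was called and 12 were below 1, with a median log2 ratio of -0.11. Over standardised mesenchyme most imprinted genes thus did not share this size of change, but classes differed. In autopod mesenchyme all 14 measured were below 1 and 4 were lower (-0.46), against 1.77% of all genes there. In autopod chondrocyte progenitors 3 of 15 were higher and 4 lower, against 2.86% and 5.02%. In muscle 10 of 15 were above 1 (0.24), with 1 lower, against 2.84%. Of genes of translation and respiration, Rps29 had 2017 and 2970 CPM (0.679), Rps28 had 0.704, and Atp5k, a small subunit of ATP synthase, had 305 and 469 CPM (0.651, 0.632 to 0.671). Yet 53 of 76 ribosomal protein genes were above 1 (median log2 ratio 0.10) and 1 of 70 respiratory chain genes was called (0.00). Ribosomal protein genes have many near-identical copies, as may Gm10076 (167 and 285 CPM, 0.585), and their values are uncertain where counting could split reads.

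Of 7 globin transcripts, which come from red cells and reach other droplets as free RNA, 2 were lower in Dup mesenchyme and 6 were below 1. Hba-x had 566 CPM in Dup and 978 CPM in wild type (0.578, 0.566 to 0.591), and Hbb-bh1 had 73.0 and 134 CPM (0.544). Hbb-y did not reach the fold, with 1455 and 2093 CPM (0.695), and Hbb-b1 had 1.01 (0.937 to 1.10). The 7 measured globin genes summed to 2772 CPM in Dup and 4127 CPM in wild type. Erythroid markers ran from 1576 to 2961 CPM in Dup and from 2090 to 4604 CPM in wild type over the 7 classes, and in each of them they were lower in Dup. The part of free RNA in other genes was not tested.

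A transcript without a symbol in the files, ENSMUSG00000103034, had the highest ratio of any gene measured at 20 CPM, and it was picked out after its value was seen. It had 53.4 CPM in Dup and 7.69 CPM in wild-type standardised mesenchyme, a ratio of 6.94 (5.83 to 8.28), and 47.8 and 7.13 CPM in muscle. Its ratio was 4.42 to 9.15 over the 7 classes. Without standardisation it had 168 CPM in Inv1 and 174 CPM in G4 wild-type hindlimb mesenchyme, so it was abundant in both libraries of the G4 background and scarce in the C57BL/6 wild type alone among the hindlimbs, with Dup between them at 53.1 CPM. Whether it follows the strain was not tested.

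Autopod chondrocyte progenitors differed in their cycle and cartilage genes. Of 20 G2/M genes 19 were lower in Dup, against 5.02% of all genes of the class, and all 20 were below 1. Their ratios were 0.320 to 0.669, with a median log2 ratio of -1.14, beside -0.05 over all genes of the class. Top2a, the topoisomerase of dividing cells, had 193 CPM in Dup and 424 CPM in wild type (0.456, 0.394 to 0.526). Cenpf, a kinetochore protein gene, had 206 and 445 CPM (0.463), and Plk1, a mitotic kinase, had 27.7 and 86.5 CPM (0.320). S phase genes moved less, with 3 of 20 lower (-0.17). Cells of the class lay in 1 coarser cluster, but among the finer clusters, cluster 27 held 15.1% of Dup and 37.8% of wild-type cells of the class, and cluster 9 held 78.3% and 56.7%. After thinning to 4000 UMIs, 19 of 19 measured were lower. Among cells with over 3000 detected genes, 0 of 20 were lower and the median log2 ratio was 0.07, but that limit kept 37 of 272 Dup and 51 of 90 wild-type cells, and within Dup the summed G2/M level of the kept cells was 5107 CPM, against 1805 CPM in all cells of the class. Of measured G2/M genes, 1 of 16 was lower in stylopod chondrocyte progenitors, against 2.13% of all genes there. In each of the other 4 mesenchymal classes and in muscle 0 of 20 were called.

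Several cartilage genes were higher in the same class. Of 9 chondrogenic genes 3 were higher, against 2.86% of all genes of the class, and 8 were above 1, with a median log2 ratio of 0.50. Sox6, a cofactor of Sox9, had 71.7 CPM in Dup and 35.4 CPM in wild type (2.03), Col9a2, a cartilage collagen gene, had 33.3 and 9.83 CPM (3.39), and Col9a3 had 64.9 and 28.5 CPM (2.28). Sox9, the master regulator of cartilage, had 538 and 380 CPM (1.42), and Col2a1 had 1.01. After Fos and Jun, the genes named as highest in this class were Creb5, a transcription factor of the developing joints, with 142 and 34.4 CPM (4.12), Aldh1a2, which makes retinoic acid (132 and 42.3 CPM, 3.11), and Sulf1, a heparan sulfatase (239 and 97.4 CPM, 2.46). In standardised mesenchyme as a whole, 0 of 9 chondrogenic genes were called and Sox9 had 219 and 275 CPM (0.798).

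The remaining mesenchymal classes had leading genes of their own. In muscle connective tissue, Anxa2, a membrane-binding protein gene, had 83.8 CPM in Dup and 21.5 CPM in wild type (3.90), Kera, a sister proteoglycan of lumican, had 171 and 86.0 CPM (1.99), and Crabp1, a retinoic acid binding protein gene, had 591 and 312 CPM (1.89). Tcf7l2, a marker of this tissue, was lower there with 122 and 301 CPM (0.406), as was Vcan with 73.5 and 202 CPM (0.364). In zeugopod mesenchyme, Nbl1, a BMP antagonist gene, had 74.0 and 38.3 CPM (1.93), and Igf1, the growth factor, had 45.4 and 106 CPM (0.428). In autopod mesenchyme, Hmga2, a chromatin protein gene of growing embryonic tissue, had 314 and 515 CPM (0.609), and the imprinted genes Mest and Peg3 had 331 and 627 CPM (0.528) and 103 and 198 CPM (0.521).

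Muscle cells of Dup, 188 against 132 in wild type, had more Myod1 and less Pax3 and Met. Myod1, which commits cells to muscle, had 343 CPM in Dup and 208 CPM in wild type (1.65), and Myog, which drives their differentiation, had 297 and 215 CPM (1.38). Pax3, the factor of migrating precursors, had 81.2 and 144 CPM (0.564, 0.464 to 0.683), and Met, the receptor that guides their migration, had 78.3 and 122 CPM (0.644). Myf5, a further regulator on the list, had 102 and 137 CPM (0.749, 0.624 to 0.897), short of the fold. With cells thinned its interval included 1 (0.829, 0.598 to 1.15). Of 10 myogenic regulators 2 were higher and 2 lower, against 1.57% and 2.84% of all genes of the class. Above 1 were 5 and below 1 were 5, and the median log2 ratio was -0.02. After thinning to 4000 UMIs per cell, Myod1 stood at 1.57, Pax3 at 0.476 and Met at 0.535, while Chrna1, the other gene called higher (1.61), stood at 0.602.

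Sarcomere genes were higher as summed, but the call depended on how cells were weighted. Of 11 measured, 9 were higher with a median log2 ratio of 0.85, Acta1, skeletal actin, leading with 52.7 CPM in Dup and 7.60 CPM in wild type (6.93). After thinning, 3 of 12 were higher with a median of 0.20, and 3 of 12 with 0.28 as a mean over cells. Ttn (0.664, 0.471 to 0.935) and Tnnc2 (0.490, 0.297 to 0.799) stood under 1 after thinning, from 1.10 and 1.11 before. The cells with most sarcomere UMIs, 19 in Dup and 14 in wild type, held 72.6% and 79.9% of all sarcomere UMIs.

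**Figure D5:**
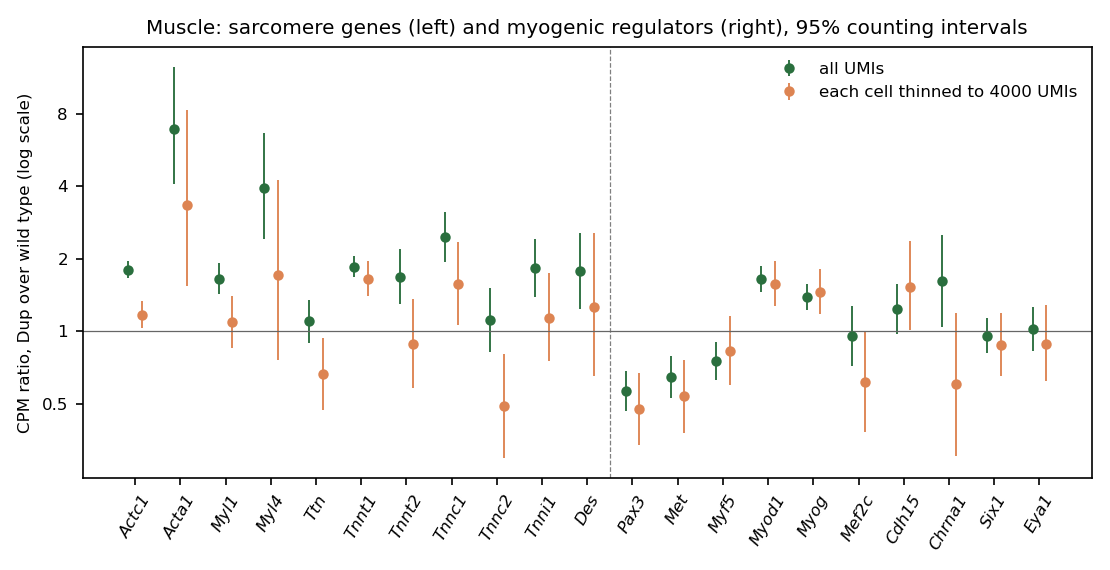
Ratio of CPM in Dup over wild type (y axis, log scale) of sarcomere genes and myogenic regulators (x axis) in muscle cells, from all UMIs (green) and after each cell was thinned to 4000 UMIs (orange), with 95% counting intervals. Pax3 and Met stay under 1 and Myod1 and Myog above 1 in both. Chrna1, Eya1, Tnnt2, Ttn and Tnnc2 cross 1, Ttn and Tnnc2 with intervals under 1 after thinning, while most other sarcomere genes come closer to 1.

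After Jun and Fos, Acta2, the smooth muscle actin of early myogenic cells, was the next of the genes named as higher in muscle, with 730 CPM in Dup and 319 CPM in wild type (2.29, 2.09 to 2.51). Tnnt1, a troponin gene, had 551 and 297 CPM (1.85), and Id1, an inhibitor of bHLH factors, had 618 and 286 CPM (2.16). Jun had 613 and 177 CPM (3.46), and Rhob, outside the immediate early list, had 100 and 23.3 CPM (4.30). Meox2, a homeobox factor of limb muscle, was lower at 81.7 and 149 CPM (0.549), as was Ptn, which encodes the growth factor pleiotrophin, at 235 and 404 CPM (0.581). Mesenchyme markers summed to 226 CPM in Dup and 265 CPM in wild-type muscle cells, beside mesenchymal transcripts such as Col2a1 (0.383) that were lower there. In the other pairs, Acta2 had 698 CPM in Inv1 and 380 CPM in G4 wild-type hindlimb muscle, and 1310 and 819 CPM in the forelimb pair. Pax3 had 69.0 and 110 CPM in the Inv1 and G4 hindlimbs and 31.0 and 61.9 CPM in the forelimbs, so each mutant library stood on the same side of its wild type for both genes.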

How the data were processed

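Single-cell libraries (10x, 3′ counting) of hindlimb buds were compared, 1 library of Dup and 1 of C57BL/6 wild type, grouped by genotype in the labels. Deposited were UMI counts, not normalised, for every gene in every cell. To make them the authors ran Cell Ranger (version 3) with a custom mm9 reference. The submitters' notes list mm10 as well. The authors filtered cells on detected genes, mitochondrial share and Scrublet doublet score, integrated the libraries, and named classes from Louvain clusters. Those deposited class and cluster columns, of other units, were used as given, and no further doublets were removed. The matrix held 0 mitochondrial rows. Of 15668 rows, 14544 had a symbol, 1124 had none and 8 shared one. Columns of per-sample values that were not used numbered 15.

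Cells with over 2000 detected genes were kept, leaving out 43 Dup and 4 wild-type cells. UMIs were summed per class and scaled to CPM, from 35.0 M UMIs in Dup and 22.7 M in wild type. Intervals are exact Poisson, Clopper-Pearson for shares and conditional binomial for ratios, at 95%. The standardised ratio used a delta-method interval and weights equal to the mean of both libraries' shares of UMIs: 28.1% autopod mesenchyme, 5.53% autopod chondrocyte progenitors, 31.3% zeugopod mesenchyme, 5.79% muscle connective tissue, 24.6% stylopod mesenchyme and 4.77% stylopod chondrocyte progenitors. With 1 library per group no test was run.

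Named genes were, in mesenchyme, the 12 highest and 12 lowest ratios (20 CPM added) on the same side of 1 in all 6 classes, 8 and 8 in muscle and 5 and 5 in each other class (50 CPM added) with an interval excluding 1, 5 a side moved most by standardisation, and members of 35 gene lists. Genes of the locus, globins, Y-linked genes and Xist were left out of these ranks. Not all of them are described. The members and lists were chosen with earlier results of these data known. Alternatives were over 3000 detected genes, thinning to 4000 UMIs, the mean over cells, median-of-ratios scaling, other weights, other floors, a 2-fold limit and cluster strata. The measures were also run on simulated Poisson counts with known changes. These counts held no variation between cells or libraries, so the run checks the code and not the error of 1 library per group. Coordinates are NCBIM37, the assembly of mm9, and printed sequences are from RefSeq (GRCm38.p6). Python 3.11.15, numpy 2.4.6, scipy 1.17.1 and pandas 2.3.3 were used.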

Additional observations from a re-analysis of the deposited data

Results flagged for a closer look

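The genes Lbx1, Acta2 and Itm2a had an effect on opposite sides of 1 in muscle and in mesenchyme, and in no case was the difference between the classes tested. Lbx1 had a ratio of 1.57 in muscle and 0.467 (0.282 to 0.773) in standardised mesenchyme, where it was near the floor of counting. Acta2 had 2.29 in muscle and 0.678 (0.5 to 0.918) in mesenchyme, where at 3.24 CPM in Dup and 4.78 CPM in wild type it was likewise too low to be read as expression. Itm2a had 1.56 in muscle and 0.765 (0.734 to 0.796) in mesenchyme.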

How the results depend on the processing

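With 14 mesenchymal genes past 1.5-fold as the base, the count was 28 after thinning to 4000 UMIs, 28 as a mean over cells, 55 without standardisation, 44 at a floor of 20 CPM, 683 at a floor of 10 UMIs and 4 at 2-fold. For muscle, with 72 as the base, it was 163, 233 and 596 after thinning, at 20 CPM and at 10 UMIs, and 12 at 2-fold. On chromosome 19 outside the segment, 0 genes became 1 after thinning, 2 as a mean over cells, 1 without standardisation, 1 at 20 CPM and 21 at 10 UMIs. Of the lists, proximal genes gave 5 calls without standardisation and 1 in finer clusters, middle Hox genes gave 4 over 3000 detected genes, 2 as a mean over cells, 0 with equal weights, 0 with wild-type weights and 5 without standardisation, sarcomere genes gave 3 after thinning and 3 as a mean over cells, and G2/M genes in autopod chondrocyte progenitors gave 0 over 3000 detected genes, where their median log2 ratio was 0.07 in place of -1.14. The autopod share ratio was 2.55 over 3000 detected genes, and the duplicated sum in muscle was 1.63 after thinning. The cause was not tested beyond what each setting leaves out. Of 41 single genes followed over these settings none changed its side of 1. Most of the 41 were picked from genes already called or named here, so a change of side was unlikely. Under the other settings 97 of their values moved outside the main interval and 202 stayed inside it, and Hoxd13 came down to 1.00. In muscle, among sarcomere genes and myogenic regulators outside those 41, Chrna1 (1.61 and 0.602) and Tnnt2 (1.68 and 0.886) changed side after thinning. So did Ttn (1.10 and 0.664), Tnnc2 (1.11 and 0.490), Myh3 (1.30 and 0.749) and Eya1 (1.02 and 0.887). Median-of-ratios scaling gave 14 calls in mesenchyme (7 higher, 7 lower) and 70 in muscle (35 and 35). The cluster strata and the G2/M settings were chosen after seeing the data. No paired analysis was possible because each group held 1 library.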

Other observations

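Genes of cholesterol synthesis were mostly below 1 in standardised mesenchyme, each by less than the fold. Of 12 measured, 0 were called and 11 were below 1, with a median log2 ratio of -0.26 beside -0.04 over all genes at this floor. Sc5d, a late step of the pathway, had 29.3 CPM in Dup and 38.0 CPM in wild type (0.770). In autopod chondrocyte progenitors 7 of 12 were lower (-0.66, against 5.02% of all genes of the class), among them Idi1, at 60.4 CPM in Dup and 104 CPM in wild type (0.580, 0.439 to 0.766). In stylopod chondrocyte progenitors 5 were above and 5 below 1 (0.01). Scd2 and Scd1, the desaturase genes on chromosome 19, had 0.719 and 0.771.

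Genes of glycolysis stayed near 1, with a median log2 ratio of -0.02 over 11. Hk2, an inducible hexokinase gene, was the member called, with 16.8 and 28.0 CPM (0.6, 0.528 to 0.682). Of 4 retinoic acid genes 0 were called, and of 4 hindlimb identity genes 0 were called, with Tbx4, which drives hindlimb outgrowth, at 41.0 and 52.3 CPM (0.785, 0.719 to 0.856). Of 9 tendon and connective tissue genes Lum alone was called, and the tendon factor Scx had 151 and 166 CPM (0.911).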
